A study of Mus musculus with 6 samples.

Results

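Hedgehog signalling was described in 3 cultured cell populations of KM mice through 9 listed genes, the ligand genes Dhh, Shh and Ihh, the receptor gene Ptch1, the antagonist gene Hhip, the transducer gene Smo and the transcription factor genes Gli1, Gli2 and Gli3. The genes were chosen by symbol and matched to Entrez Gene identifiers, and 8 of the 9 were read among 20007 identifiers, while Shh was not analysed here. CiSCs were passaged embryonic fibroblasts that had received small-molecule compounds, unnamed in the labels, to bring them towards a Sertoli cell state. MSCs were Sertoli cells from testes of postnatal day 60 and were plated in culture. MEFs were embryonic fibroblasts labelled as coming from embryos of 13.5 days post coitum, an age that the CiSCs share as their starting cells. Each group had 2 RNA sequencing libraries, and none of the groups consisted of fibroblasts passaged without the compounds. Separate cultures or animals are not stated for the 2 libraries of any group, so p-values reflect only how far these libraries differ, which may be technical.

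In the hedgehog pathway a secreted, lipid-modified ligand binds Patched on a neighbouring cell. Free Patched holds Smoothened inactive, and bound Patched releases it, so that GLI proteins act as activators instead of being cut to repressors. The genes Ptch1, Gli1 and Hhip are themselves targets of active GLI proteins in many tissues. In the mouse testis, Sertoli cells make Desert hedgehog, and Leydig and peritubular myoid cells of the interstitium carry the receptor and respond.

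The promoters of Dhh, the member with the largest difference between groups, and of Ptch1, the receptor that binds its product, are shown because the levels of both were highest in MSCs. They run from 250 bases before to 50 bases after the transcription start in RefSeq on GRCm38.p6, and both genes lie on the minus strand. The Dhh promoter spans chr15:98898491-98898790 and the Ptch1 promoter chr13:63565686-63565985. Capitals mark the letters GGGCGG or their reverse complement, known as a GC box.
Dhh: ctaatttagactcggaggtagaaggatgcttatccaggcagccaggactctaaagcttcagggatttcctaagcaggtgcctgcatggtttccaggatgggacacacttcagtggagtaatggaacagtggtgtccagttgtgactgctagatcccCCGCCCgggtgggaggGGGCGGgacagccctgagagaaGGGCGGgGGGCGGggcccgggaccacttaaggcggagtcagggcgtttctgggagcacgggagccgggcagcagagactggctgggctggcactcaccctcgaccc
Ptch1: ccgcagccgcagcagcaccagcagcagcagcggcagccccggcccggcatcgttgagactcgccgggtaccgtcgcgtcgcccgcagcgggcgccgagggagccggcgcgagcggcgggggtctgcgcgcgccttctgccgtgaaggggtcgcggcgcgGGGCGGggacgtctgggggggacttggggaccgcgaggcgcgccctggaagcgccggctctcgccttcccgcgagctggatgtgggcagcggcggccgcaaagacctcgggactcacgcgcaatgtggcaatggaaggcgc

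The GC box stood at 4 places in the Dhh promoter, at 94, 78, 56 and 49 bases before the start, and at 1 place in the Ptch1 promoter, 91 bases before the start. Among 32851 promoters of the same length, 35.7% held at least 1 such match and 5.49% at least 4, on either strand. The Dhh promoter had 12 CpG pairs and the Ptch1 promoter 47, against a median of 7 over all promoters. The letters GACCACCCA, which GLI proteins bind, were not in either window on either strand, and 0.253% of all promoters held them. The letters AACAAT of SOX factors, AGATAA of GATA factors and AAGGTCA of NR5A receptors were not in these windows either. They were found in 10.7%, 11.2% and 4.72% of all promoters, and none of the marked matches overlapped another motif.

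Levels below are CPM, read counts scaled by effective library size, which is depth multiplied by the TMM normalisation factor of edgeR. A mean ± SD is over 2 libraries. Differences are log2 fold changes ± their standard error with Benjamini-Hochberg adjusted p from edgeR over 15272 tested genes. The libraries held between 19294700 and 20418600 expected counts. Their effective sizes lay between 18408000 and 21375300, so 1 read was worth between 0.0468 and 0.0543 CPM. A count of 0 over the 2 libraries of a group allows up to 0.0709 CPM in CiSCs, 0.0806 CPM in MSCs and 0.0769 CPM in MEFs, by counting error only. Of the 8 genes, 7 had enough reads to be tested and Ihh did not. MEF libraries were less alike than the others: 31.8% of tested genes differed more than 1.5-fold between replicates. In CiSCs this share was 11.2% and in MSCs 8.70%. In these bulk samples, fewer cells of a type and less RNA per cell cannot be told apart.

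Dhh (Entrez Gene 13363) was abundant in MSCs and near the detection limit in the other groups. It had 37.5 and 46.9 CPM in the MSC libraries, against 0.101 and 0.104 CPM in the MEF libraries, where it was counted in 4 reads. The CiSC libraries had 0.0954 and 0.281 CPM, from 8 reads in all. The MSC libraries thus stood above all others, and the CiSC and MEF libraries overlapped. The log2 fold change was 8.60 ± 0.39 for MSCs against MEFs (adjusted p = 2.22e-05) and -7.76 ± 0.35 for CiSCs against MSCs (adjusted p = 1.89e-05). Dhh passed the filter on low counts only through the MSC libraries, so a difference from MSCs was built into its being tested. By counting alone, the level in CiSCs was 0.00448 of that in MSCs (95% exact binomial interval 0.00193 to 0.00885). For CiSCs against MEFs the fold change was 0.84 ± 0.70 (adjusted p = 0.406), with a counting ratio of 1.84 (interval 0.494 to 8.36), so no difference could be detected with these reads.

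The annotation places other genes over parts of Dhh. In GENCODE M21, 12.4% of its exon bases are shared with Rhebl1 on the same strand and 25.2% with the antisense gene Gm49442. Rhebl1 had 1.12 and 1.09 CPM in the MSC libraries, 2.24 and 1.73 CPM in the CiSC libraries and 2.38 and 2.29 CPM in the MEF libraries, so its level did not follow that of Dhh. The strand of the libraries is not stated in the sources used here, and reads of the antisense gene could not be told apart from those of Dhh. The longest run of bases that Dhh and Ihh transcripts share was 16. Among the Gli transcripts these runs were 23 bases for Gli1 and Gli2, 14 for Gli1 and Gli3 and 25 for Gli2 and Gli3.

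Ihh (Entrez Gene 16147), the ligand of growth plate cartilage, stayed near the detection limit in all 3 groups. It had 0.143 and 0.187 CPM in CiSCs, 0.0532 and 0.0543 CPM in MSCs, and 0.152 and 0.312 CPM in MEFs, from 7, 2 and 9 reads in the groups. The counting ratio of MSCs to MEFs was 0.233 (95% interval 0.0245 to 1.13), and that of CiSCs to MEFs was 0.717 (interval 0.227 to 2.16). Both intervals include equal levels. Defining cartilage genes were also low in CiSCs, where the matrix gene Acan had 0 reads. Acan did not follow Ihh across groups, with 11 reads in MEFs and 233 ± 24.5 CPM in MSCs, the group with the fewest Ihh reads.

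**Figure D1:**
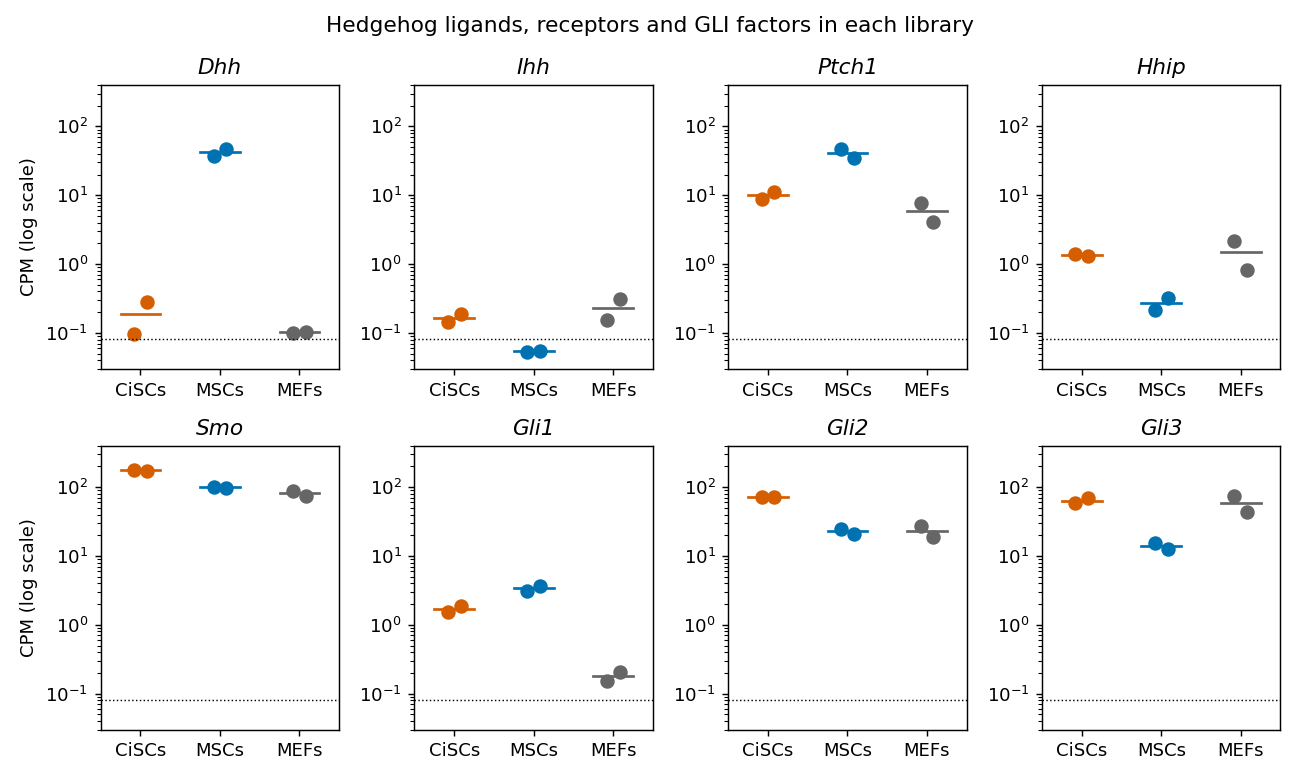
CPM of the 8 measured genes on a log scale, in CiSCs, MSCs and MEFs. Points are libraries, short bars are group means, and the dotted line marks 0.0806 CPM, the highest of the group limits for a count of 0. Dhh lies near 40 CPM in MSCs alone, with the exact values 37.5 and 46.9, and Gli1 is lowest in MEFs.

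Ptch1 (Entrez Gene 19206), the ligand receptor and a target of the pathway, was highest in MSCs. It had 47.7 and 34.4 CPM in MSCs, against 7.69 and 4.05 CPM in MEFs, and the groups did not overlap. The difference was 2.80 ± 0.34 on the log2 scale (adjusted p = 0.000980). CiSCs had 8.83 and 11.1 CPM, above both MEF libraries and below both MSC libraries. Against MSCs the difference in CiSCs was -2.04 ± 0.32 (adjusted p = 0.00284). Against MEFs it was 0.76 ± 0.33 and did not pass (adjusted p = 0.112). It passed without the first MEF library, at 1.27 ± 0.29 (adjusted p = 0.00665), and that library had 1.90 times the Ptch1 level of the second.

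Hhip (Entrez Gene 15245), a membrane protein that binds and sequesters the ligands, did not follow Ptch1. It had 0.213 and 0.326 CPM in MSCs, against 2.17 and 0.832 CPM in MEFs, and was lower in both MSC libraries than in either MEF library. The log2 fold change was -2.46 ± 0.61 (adjusted p = 0.0191). This call was lost without the first MSC library (adjusted p = 0.133) and without the second (0.0879). CiSCs had 1.38 and 1.31 CPM, which lay between the values of the MEF libraries (log2 fold change -0.16 ± 0.50, adjusted p = 0.823). Against MSCs the level in CiSCs was higher by 2.30 ± 0.62 (adjusted p = 0.0240), a call that was lost when either CiSC or either MSC library was left out (adjusted p from 0.0843 to 0.151). The MSC values rest on 10 reads.

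Smo (Entrez Gene 319757), the transducer that Patched restrains, was expressed in every library and rose in CiSCs. It had 177 and 172 CPM in CiSCs, against 88.9 and 75.0 CPM in MEFs, a log2 fold change of 1.09 ± 0.13 (adjusted p = 0.00113). MSCs had 102 and 98.2 CPM, above both MEF libraries, but the difference of 0.29 ± 0.13 did not pass (adjusted p = 0.126). It passed without the first MEF library, at 0.38 ± 0.10 (adjusted p = 0.0111). CiSCs were above MSCs by 0.80 ± 0.13 (adjusted p = 0.00345). Without the second MSC library this difference was 0.78 ± 0.21 and missed the threshold (adjusted p = 0.0513).

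Gli1 (Entrez Gene 14632), an activator whose own transcription is a common readout of the pathway, was higher in both other groups than in MEFs. It had 1.53 and 1.87 CPM in CiSCs, against 0.152 and 0.208 CPM in MEFs, or 72 reads against 7. The log2 fold change was 3.20 ± 0.41 (adjusted p = 0.00137), and the counting ratio was 9.48 (95% interval 4.37 to 24.4). MSCs had 3.08 and 3.69 CPM, higher than MEFs by 4.19 ± 0.40 (adjusted p = 0.000361). The 3 groups did not overlap. Gli1 shares 1.24% of its exon bases with Arhgap9 on the opposite strand, which had 0.191 and 0.0936 CPM in CiSCs and 4.20 and 2.66 CPM in MSCs, against 21.3 and 32.5 CPM in MEFs, and 5.31% with the antisense gene Gm47200. CiSCs were lower than MSCs by a log2 fold change of -0.99 ± 0.30 (adjusted p = 0.0375). That last call was lost by DESeq2 (adjusted p = 0.144), with the replicate number as a block (0.0657), and when either CiSC or either MSC library was left out (from 0.122 to 0.231).

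Gli2 (Entrez Gene 14633), the main activator of the first response, was higher in CiSCs than in either other group. Its levels were 71.7 and 71.2 CPM in CiSCs, against 27.7 and 18.9 CPM in MEFs, a log2 fold change of 1.62 ± 0.21 (adjusted p = 0.00150). MSCs had 25.04 and 20.6 CPM, within the range of the MEF libraries (log2 fold change -0.03 ± 0.21, adjusted p = 0.930). CiSCs exceeded MSCs by 1.64 ± 0.21 (adjusted p = 0.00116).

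Gli3 (Entrez Gene 14634), the main source of the repressor form, was lower in MSCs. MSC libraries had 15.5 and 12.7 CPM, against 74.5 and 42.9 CPM in MEF libraries, and the groups did not overlap. The log2 fold change was -2.06 ± 0.29 (adjusted p = 0.00187). CiSCs had 57.9 and 69.005 CPM, within the range of the MEF libraries, and did not pass (0.11 ± 0.27, adjusted p = 0.767). Without the first MEF library, whose Gli3 level was 1.74 times that of the second, CiSCs were higher by 0.54 ± 0.16 (adjusted p = 0.0223). CiSCs exceeded MSCs by 2.17 ± 0.29 (adjusted p = 0.00131).

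**Figure D2:**
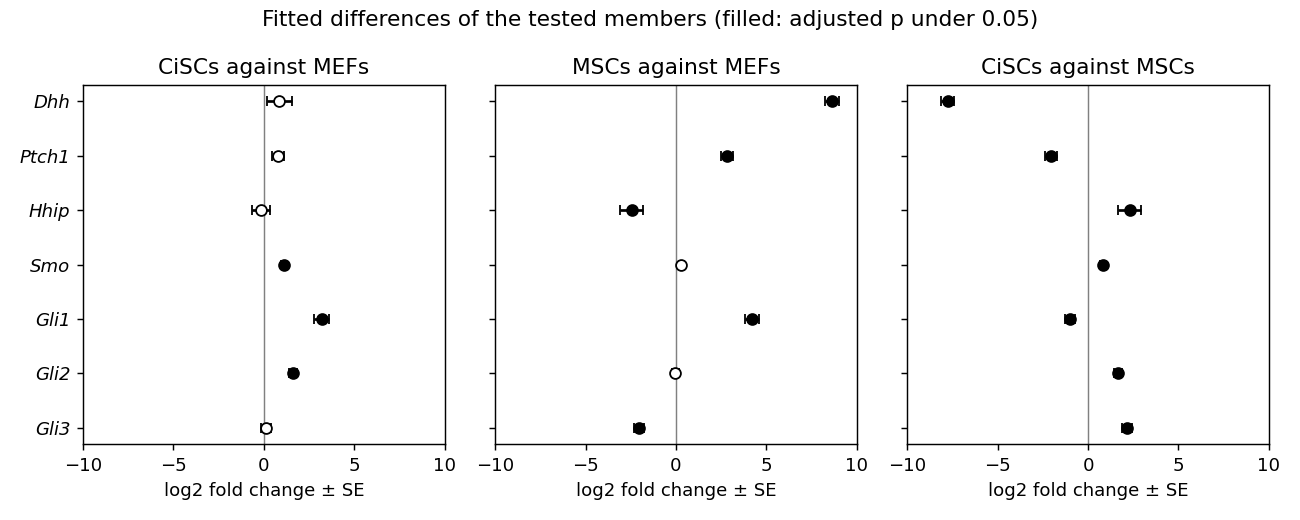
Log2 fold change ± standard error of the 7 tested genes in the 3 comparisons, filled where the adjusted p was under 0.05. Against MEFs, CiSCs have filled points for Smo, Gli1 and Gli2, while MSCs have them for Dhh, Ptch1, Hhip, Gli1 and Gli3.

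Counted together, 3 of the 7 tested genes rose in CiSCs against MEFs (Smo, Gli1 and Gli2) and 0 fell. Across all tested genes 40.9% were called in that comparison, 19.6% as higher and 21.3% as lower. Of the 4 that did not pass by edgeR, 0 had an adjusted p under 0.05 by DESeq2. In MSCs against MEFs, 3 were higher (Dhh, Ptch1 and Gli1) and 2 lower (Gli3 and Hhip), where 42.5% of all tested genes were called, 22.5% as higher and 20.0% as lower. In CiSCs against MSCs, 4 were higher (Smo, Gli2, Gli3 and Hhip) and 3 lower (Dhh, Ptch1 and Gli1), where 42.8% of all tested genes were called, 17.7% as higher and 25.1% as lower. The number called in that last comparison was 5 or 4 when a CiSC or MSC library was left out. The comparisons against MEFs share the MEF libraries, and each of them shares a group with CiSCs against MSCs. Macrophage markers moved with both comparisons against MEFs. Of 7, 7 fell in CiSCs and 7 in MSCs, with a summed level of 8.59 to 14.1 CPM in CiSCs and 472 to 484 CPM in MSCs, against 3670 to 4963 CPM in MEFs, and their part in the calls of the hedgehog genes was not tested.

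**Figure D3:**
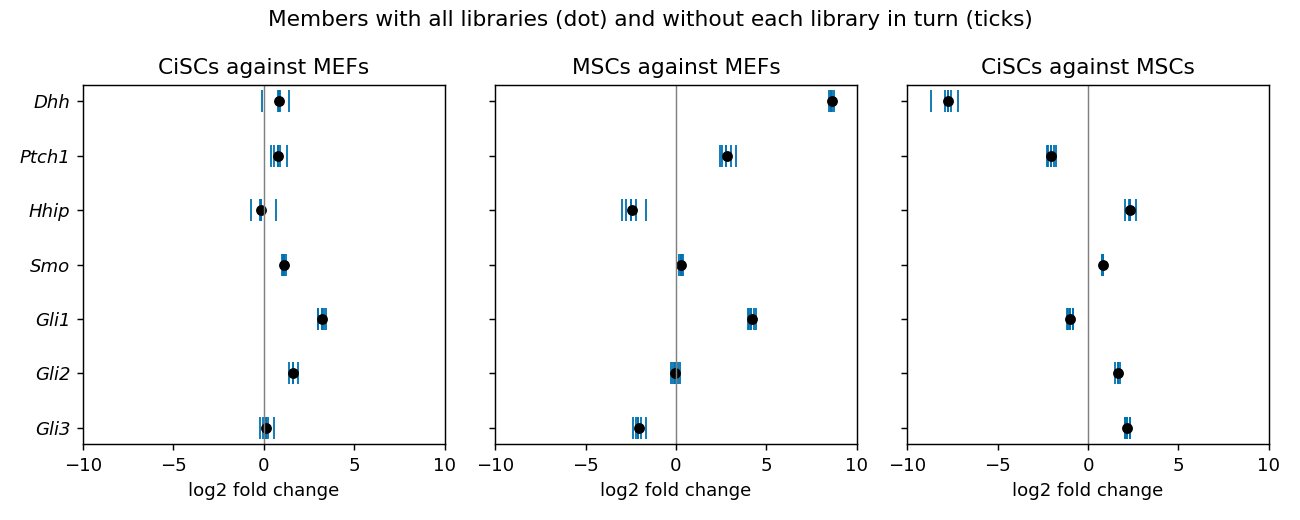
Log2 fold change of the 7 tested genes with all 6 libraries (dots) and without each library in turn (ticks). For CiSCs against MEFs, Dhh, Hhip and Gli3 have ticks on both sides of 0, and so does Gli2 for MSCs against MEFs.

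Levels of different genes were compared per length, as CPM per kb of the longest protein-coding transcript in GENCODE M21. In CiSCs the order was Smo (46.2 ± 0.940 CPM per kb), Gli2 (10.8 ± 0.0482), Gli3 (7.77 ± 0.960), Ptch1 (1.29 ± 0.211), Gli1 (0.419 ± 0.0601), Hhip (0.148 ± 0.00573), Ihh (0.0669 ± 0.0126) and Dhh (0.0443 ± 0.0309). The libraries of Dhh and Ihh overlapped there. In MSCs, Dhh ranked next to Smo, at 9.95 ± 1.58 CPM per kb against 26.5 ± 0.713 CPM per kb, and it was followed by Ptch1 at 5.32 ± 1.21 CPM per kb. In MEFs, Smo at 21.7 ± 2.60 CPM per kb was followed by Gli3 at 7.19 ± 2.73 CPM per kb and Gli2 at 3.51 ± 0.937 CPM per kb. With coding length in place of transcript length, the order in MSCs was the same, but Dhh then came closer to Smo, at 35.5 against 42.1 CPM per coding kb. In CiSCs, Hhip then came before Gli1 and Dhh before Ihh, and in MEFs Dhh came before Gli1.

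The make-up of the GLI transcripts differed between groups. Gli2 made up 56.9 ± 3.17% of the summed per-length level of the 3 Gli genes in CiSCs, 57.2 ± 2.03% in MSCs and 33.1 ± 2.55% in MEFs. Gli3 made up 40.9 ± 2.97% in CiSCs, 28.7 ± 1.16% in MSCs and 66.5 ± 2.79% in MEFs. The share of Gli1 was 2.20 ± 0.204% in CiSCs, 14.1 ± 3.19% in MSCs and 0.455 ± 0.246% in MEFs. In every library of CiSCs and MSCs the share of Gli2 was above that of Gli3, and in both MEF libraries it was below. Shares were not tested.

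**Figure D4:**
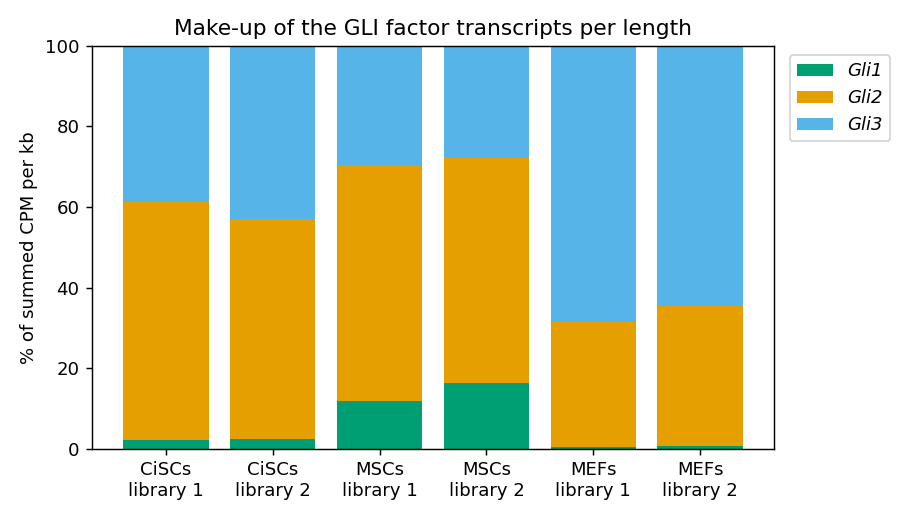
Share of Gli1, Gli2 and Gli3 in their summed CPM per kb, in percent, for each of the 6 libraries. Gli3 takes 68.4% and 64.5% in the MEF libraries and between 27.9% and 43.0% in the others.

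Apart from the 9 members, 77 pathway genes were read, in lists by role, and 74 were tested. In CiSCs against MEFs, 39 were higher and 4 lower, or 58.1% called, with a median log2 fold change of 0.59 beside -0.00 over all tested genes. In MSCs against MEFs, 22 were higher and 11 lower, or 44.6%, with a median of 0.24 beside 0.01. In CiSCs against MSCs, 30 were higher and 10 lower, or 54.1%, with a median of 0.42 beside -0.03. Leaving out a library changed these counts to between 22 and 48 in CiSCs against MEFs, 18 and 49 in MSCs against MEFs, and 18 and 53 in CiSCs against MSCs. In both libraries of a group, 1 of the 74 had under 10 reads in CiSCs, 4 in MSCs and 3 in MEFs. Of the 74, Foxl1 and Nkx3-2 passed the filter on low counts only through the CiSC libraries, and Disp2 only through the MSC libraries.

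Of 6 genes for making and releasing the ligand, 4 rose in CiSCs and 5 in MSCs against MEFs, with 0 lower in either. Disp2, among the 5 and named after its values were seen, passed the filter on low counts only through the MSC libraries. Its difference from MSCs was thus built into its being tested. Over all tested genes, 19.6% and 22.5% were higher in these comparisons. Hhat, which attaches palmitate to the ligand, had 39.8 and 42.4 CPM in CiSCs, against 9.36 and 7.12 CPM in MEFs (log2 fold change 2.32 ± 0.18, adjusted p = 0.000174). Its level of 6.59 and 5.92 CPM in MSCs did not pass against MEFs (adjusted p = 0.132), so the libraries with abundant Dhh had no higher Hhat. Disp1, which releases the ligand from the membrane, had 70.0 ± 0.134 CPM in CiSCs and 64.2 ± 0.408 CPM in MSCs, against 25.4 ± 0.307 CPM in MEFs. The secreted carrier genes Scube3 and Scube1 also rose in both. Scube3 averaged 8.26 ± 0.687 CPM in CiSCs and 10.8 ± 1.36 CPM in MSCs, against 0.792 ± 0.238 CPM in MEFs. Scube2 rose in MSCs, at 5.62 ± 0.504 CPM, against 0.565 ± 0.156 CPM in MEFs, and CiSCs had 0.661 ± 0.00915 CPM.

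Among 10 co-receptors and surface modifiers, 7 rose and 1 fell in CiSCs against MEFs, and 4 rose and 1 fell in MSCs against MEFs. These are 8 of 10 and 5 of 10 called, beside 40.9% and 42.5% over all tested genes. Cdon, a co-receptor that binds the ligand together with Patched, had 307 and 363 CPM in CiSCs, against 49.1 and 25.3 CPM in MEFs (log2 fold change 3.17 ± 0.33, adjusted p = 0.000560). In MSCs it had 44.7 and 35.8 CPM and did not pass against MEFs (adjusted p = 0.789). The co-receptor genes Boc and Gas1 rose in both populations. Boc averaged 149 ± 11.5 CPM in CiSCs and 87.2 ± 1.67 CPM in MSCs, against 38.1 ± 6.44 CPM in MEFs. Gas1 averaged 268 ± 9.09 CPM in CiSCs and 191 ± 0.929 CPM in MSCs, against 123 ± 15.0 CPM in MEFs. Lrp2, an endocytic co-receptor named after its values were seen, fell in CiSCs, at 0.801 ± 0.323 CPM, against 1.87 ± 0.435 CPM in MEFs (adjusted p = 0.0487), and its 2.93 ± 0.145 CPM in MSCs did not pass against MEFs (adjusted p = 0.194). Gpc3, a glypican that competes with Patched for the ligand, rose to 233 ± 19.6 CPM in CiSCs and fell to 28.1 ± 4.59 CPM in MSCs, against 42.2 ± 6.07 CPM in MEFs.

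Of 20 transducers between Smoothened and the GLI proteins, 9 rose and 2 fell in CiSCs, and 6 rose and 2 fell in MSCs, each against MEFs. These are 11 of 20 and 8 of 20 called, beside 40.9% and 42.5% over all tested genes. Kif7, the ciliary kinesin that organises GLI proteins, had 16.7 ± 0.136 CPM in CiSCs and 10.2 ± 0.262 CPM in MSCs, against 6.56 ± 0.0542 CPM in MEFs. Btrc, a ubiquitin ligase subunit that marks GLI proteins for cutting, averaged 39.7 ± 0.320 CPM in CiSCs and 35.9 ± 1.19 CPM in MSCs, against 22.7 ± 1.16 CPM in MEFs. Iqce, a ciliary partner of Smoothened signalling, rose in CiSCs to 32.9 ± 0.354 CPM, against 19.3 ± 0.0620 CPM in MEFs. The genes that fell were Arrb2 and Grk2, an arrestin and a kinase that act on many receptors besides Smoothened. Arrb2 had 7.06 and 7.16 CPM in CiSCs and 21.6 and 25.04 CPM in MSCs, against 120.3 and 266 CPM in MEFs. The macrophage markers fell in the same comparisons, and their part in the fall of Arrb2 and Grk2 was not tested.

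Primary cilium genes, whose products carry Smoothened and GLI proteins, mostly did not pass. In CiSCs against MEFs, 10 of 22 rose and 0 fell, with a median log2 fold change of 0.53, or 45.5% called beside 40.9% over all tested genes. In MSCs against MEFs, 3 rose and 1 fell, with a median of 0.16, or 18.2% called beside 42.5%. Bbs1, a subunit of the BBSome, had the log2 fold changes 1.25 ± 0.19 in CiSCs and 1.10 ± 0.19 in MSCs, each against MEFs. Ift81, a component of intraflagellar transport, had 25.9 ± 0.610 CPM in CiSCs and 15.8 ± 0.748 CPM in MSCs, against 13.4 ± 0.766 CPM in MEFs. Dync2h1, the motor chain of retrograde transport, averaged 23.8 ± 2.74 CPM in CiSCs and 10.5 ± 0.677 CPM in MSCs, against 10.95 ± 2.25 CPM in MEFs. Ift122 rose in both populations, and Ift20 rose in MSCs, to 47.9 ± 0.197 CPM, against 31.7 ± 4.20 CPM in MEFs.

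**Figure D5:**
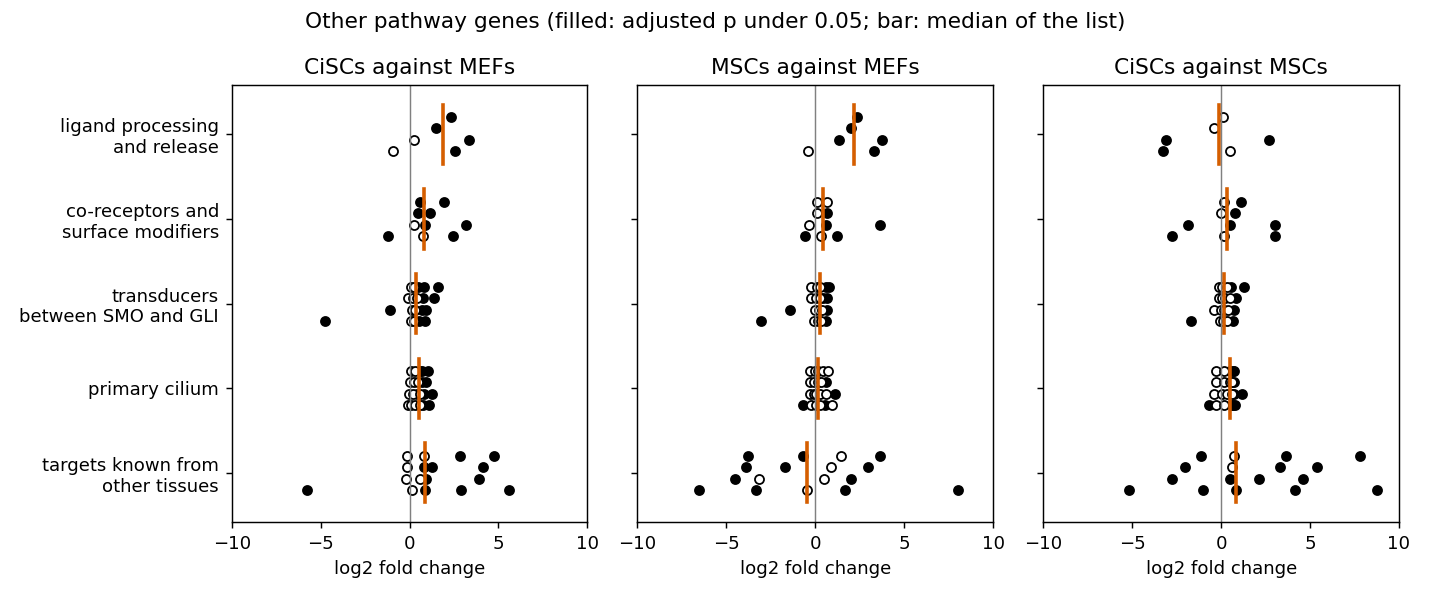
Log2 fold changes of the tested pathway genes outside the 9 members, in 5 lists by role and 3 comparisons, filled where the adjusted p was under 0.05, with the list median as a bar. For CiSCs against MEFs the medians lie above 0 in each list, and the targets spread widest.

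Genes known as hedgehog targets in other tissues did not move as a block. Of 17 tested, 10 rose and 1 fell in CiSCs against MEFs, and 5 rose and 7 fell in MSCs against MEFs. Foxl1 and Nkx3-2, among the 10 and named after their values were seen, passed the filter on low counts only through the CiSC libraries. A difference from CiSCs was thus built into their being tested. The counts include them. These are 64.7% and 70.6% called, beside 40.9% and 42.5% over all tested genes. Mycn, a proliferation factor, had 29.9 and 27.8 CPM in CiSCs, against 1.21 and 2.08 CPM in MEFs (log2 fold change 4.13 ± 0.27, adjusted p = 7.79e-05). The MSC libraries had 6.91 and 6.36 CPM of it. The sclerotome gene Pax9 had 19.5 ± 0.370 CPM in CiSCs and 0.0803 ± 0.0368 CPM in MSCs, against 1.31 ± 0.207 CPM in MEFs. Foxc2, a mesenchymal forkhead factor, went the same way, at 35.2 ± 1.32 CPM in CiSCs and 1.43 ± 0.288 CPM in MSCs, against 4.72 ± 0.127 CPM in MEFs. Ccnd1, which encodes cyclin D1, averaged 822 ± 19.0 CPM in CiSCs and 46.0 ± 4.47 CPM in MSCs, against 466 ± 133 CPM in MEFs. Osr2 was highest in MSCs, at 94.1 ± 7.47 CPM, with 2.63 ± 0.604 CPM in CiSCs, against 0.358 ± 0.0656 CPM in MEFs. Grem1, a BMP antagonist, fell in both, to 2.48 ± 0.000901 CPM in CiSCs and 1.48 ± 0.213 CPM in MSCs, against 137 ± 46.8 CPM in MEFs. All of these genes also answer to other pathways.

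Markers of Leydig cells moved with Ptch1 and Gli1 in the MSC libraries, 5 of the 5 tested being higher than in MEFs, beside 22.5% of all tested genes. Cyp11a1, Insl3 and Hsd3b1 passed the filter on low counts only through the MSC libraries. A difference from MSCs was thus built into their being tested. The summed level of 8 Leydig cell markers was 1554 to 1579 CPM in MSCs, against 11.5 to 13.0 CPM in MEFs. In CiSCs it was 11.2 to 12.3 CPM. Of these markers Hsd17b3 had 0 reads in all groups, Lhcgr had 0 in CiSCs and MEFs, and Insl3 and Cyp17a1 had 0 in CiSCs. MSCs had only 3 reads of Lhcgr and 1 of Cyp17a1, so these were near the detection limit there too. Cyp11a1 and Star, at 783 ± 14.5 and 425 ± 1.87 CPM, carried most of the MSC sum. The 6 peritubular myoid markers summed to 3746 to 3934 CPM in MSCs and 1536 to 1704 CPM in CiSCs, against 3270 to 3654 CPM in MEFs, with 2 of 6 higher in MSCs than in MEFs and a median log2 fold change of 0.16. In CiSCs against MEFs, 1 of the 6 was higher and 5 lower, beside 19.6% and 21.3% of all tested genes. The 6 endothelial markers summed to 92.6 to 97.1 CPM in MSCs, against 10.7 to 12.1 CPM in MEFs. The part of these cells in the levels of Ptch1 and Gli1 was not tested. In CiSCs against MEFs, 0 of the 5 tested Leydig markers passed in either direction, beside 40.9% of all tested genes. Cyp11a1 had 4 reads in CiSCs and 8 in MEFs, Insl3 had 0 and 2, and Hsd3b1 had 3 and 0. Little could be detected from these counts, and the other tested markers had more reads.

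Markers of Sertoli cells, which make Dhh in the testis, were summed over 10 genes. The sum reached 5939 to 8813 CPM in MSCs and 4122 to 4851 CPM in CiSCs, against 94.9 to 105 CPM in MEFs, and Clu alone gave 4377 ± 505 CPM in CiSCs. Gata4, a gonadal transcription factor gene, had 252 ± 17.7 CPM in MSCs, 0.0945 ± 0.00131 CPM in CiSCs and 0.154 ± 0.00297 CPM in MEFs. Gata4 was chosen after its values were seen. Of the 9 markers tested, 9 rose in MSCs and 3, or 33.3%, rose in CiSCs, each against MEFs, and 0 fell in either. Over all tested genes, 22.5% were higher in MSCs and 19.6% in CiSCs, with 42.5% and 40.9% called in either direction. Gata4, Dmrt1 and Amh, the last named after its values were seen, passed the filter on low counts only through the MSC libraries. A difference from MSCs was thus built into their being tested. Schwann cell markers, another source of Dhh, summed to 42.4 to 44.9 CPM in MSCs and 8.89 to 13.8 CPM in CiSCs, against 49.97 to 52.4 CPM in MEFs. Of 4 tested, 1 was higher and 1 lower in MSCs against MEFs. S100b had 13.5 ± 0.326 CPM in MSCs, against 0.155 ± 0.148 CPM in MEFs (log2 fold change 6.40 ± 0.49, adjusted p = 0.000146). S100b passed the filter on low counts only through the MSC libraries, so a difference from MSCs was built into its being tested. Mbp, which carried most of the sum, had 27.8 ± 0.944 CPM in MSCs, against 49.2 ± 0.950 CPM in MEFs. The part of Schwann cells in the Dhh level was not tested. The 7 germ cell markers summed to 26.9 to 33.5 CPM in MSCs and 2.11 to 2.58 CPM in CiSCs, against 3.85 to 3.996 CPM in MEFs, with Tnp1 at 0 reads in every library. The 7 cartilage and bone markers summed to 378 to 422 CPM in MSCs, 34.3 to 35.9 CPM in CiSCs and 30.6 to 38.5 CPM in MEFs. Acan and Alpl, with 233 ± 24.5 and 133 ± 8.55 CPM in MSCs, carried the MSC sum and rose against MEFs. Col2a1 and Col10a1, named after their values were seen, fell in MSCs against MEFs, with log2 fold changes of -4.01 ± 0.58 and -3.16 ± 0.56. Acan passed the filter on low counts only through the MSC libraries, and Col2a1 and Col10a1 only through the MEF libraries. A difference from that group was thus built into the testing of each. The summed level of 5 fibroblast markers, set mostly by Col1a1 and Col1a2, was 22484 to 22597 CPM in CiSCs, 24059 to 26599 CPM in MSCs and 17718 to 18824 CPM in MEFs. Of the 5, 1 rose and 1 fell in CiSCs, and 2 rose and 1 fell in MSCs, each against MEFs. These are 40.0% and 60.0% called, beside 40.9% and 42.5% over all tested genes. Thy1 of the same list, named after its values were seen, fell to 139 ± 9.67 CPM in CiSCs and 4.22 ± 0.102 CPM in MSCs, against 777 ± 127 CPM in MEFs. Dcn, also named after its values were seen, rose to 2375 ± 347 CPM in CiSCs and 551 ± 6.75 CPM in MSCs, against 296 ± 13.7 CPM in MEFs.

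The genes with the profile most like that of Gli1 or Dhh were found by the Euclidean distance between log2 CPM profiles over the 6 libraries, each centred on its mean, among 14525 tested genes with a symbol. For Gli1 they were Hid1 (distance 0.387), Msi1 (0.402) and F11r (0.436). F11r, a tight junction adhesion gene, averaged 120.1 CPM in CiSCs and 270.3 CPM in MSCs, against 22.9 CPM in MEFs. For Dhh they were the myosin gene Myo5b (distance 0.103), the actin-severing protein gene Scin (0.543) and the steroidogenic enzyme gene Cyp11b1 (0.661). These 3 had 0 reads in MEFs, 2, 3 and 3 reads in CiSCs, and 21.9, 22.7 and 26.7 CPM in MSCs. Like Dhh, they passed the filter on low counts only through the MSC libraries. Their likeness to Dhh outside MSCs thus rests on very few reads, and shared regulation was not tested.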

How the data were processed

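RNA was sequenced on the BGISEQ-500 platform, per the labels' protocols. The authors deposited expected counts per gene under Entrez identifiers, 1 file per library. HISAT and the mouse build mm9 are named in the submitters' processing notes, and the counting program, annotation and strand are not given in the sources used here. From 42.0% to 43.8% of values in a library were not whole.

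Of 20007 identifiers, 18891 matched a symbol in RefSeq (GRCm38). After rounding, edgeR 4.0.16 in R 4.3.3 was applied (filterByExpr, TMM, quasi-likelihood F test, two-sided, 1 mean per group, 6 libraries, 3 residual degrees of freedom). The threshold was a Benjamini-Hochberg adjusted p under 0.05 over 15272 genes. The standard error was the fold change divided by the root of F. DESeq2 1.42.0 was an alternative. The procedure was tested on simulated data.

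The 9 genes and the lists were chosen with earlier results of these data known. Named pathway genes were the 4 with the smallest adjusted p in CiSCs against MEFs and the 3 in MSCs against MEFs of each list, some being described in words only and 1 not reported here. Of each marker list the 2 highest genes and those at 0 could be named, and for Gli1 and Dhh the 3 nearest profiles.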

Additional observations from a re-analysis of the deposited data

How the results depend on the processing

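Each count of calls was recomputed under the other settings. Genes called over all tested genes were 3395 to 9487 in CiSCs against MEFs, 3516 to 9745 in MSCs against MEFs and 3910 to 9369 in CiSCs against MSCs when a library was left out, and at an adjusted p under 0.01 they were 3774, 4009 and 4324. Leaving out a library gave 3 to 5, 4 to 6 and 4 to 7 of the 7 hedgehog genes, and 22 to 48, 18 to 49 and 18 to 53 of the 74 other pathway genes. Requiring 5 CPM in 2 libraries gave 3 hedgehog genes in MSCs against MEFs, because Gli1 and Hhip were then not tested. At an adjusted p under 0.01, 26, 21 and 22 other pathway genes passed.

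With a replicate block, the number of genes called was 5468, 5672 and 5814, and 3, 5 and 6 hedgehog genes passed. The correlation of same-numbered deviations was -0.21 for CiSCs and MEFs, 0.14 for MSCs and MEFs and -0.13 for CiSCs and MSCs, so the numbers were not treated as pairs.

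No call of a hedgehog gene changed sign. Those that crossed the threshold under some setting were Ptch1 and Gli3 in CiSCs against MEFs, Smo and Hhip in MSCs against MEFs, and Gli1, Hhip and Smo in CiSCs against MSCs, and the cause was not tested. Coding length, added after the data had been seen, gave Gli2 52.6%, 55.3% and 28.8% of the GLI level in CiSCs, MSCs and MEFs. Values under 10 reads in each library limit Dhh outside MSCs, Gli1 in MEFs, Hhip in MSCs and Ihh everywhere.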
